A study of Rattus norvegicus with 16 samples.

Results

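The genes of oxidative phosphorylation were taken by their names on the array. Non-control probes were kept whose gene name began with Nduf followed by a, b, c, s or v, with Uqcr, with Cox and a digit from 4 to 8, or with Atp5, together with probes named Sdha, Sdhb, Sdhc, Sdhd, Cyc1 or Cycs. This gave 112 probes of 91 genes, and 85 of the genes were among the 21489 genes tested. By class, 35 of the 91 belonged to complex I, 4 to complex II, 8 to complex III, 15 to complex IV and 15 to complex V, 1 was the carrier cytochrome c, and 13 carried such a name without being a subunit. The last class held the complex I assembly factors Ndufaf1 to Ndufaf7, the genes now called Dmac2, Dmac2l and Emc8, the supercomplex factor Cox7a2l, the pseudogene Cox6c-ps1, and Atp5hl1, which is named as a relative of complex V subunit d. Ndufa4 was counted with complex I by its name, although its protein is known as part of complex IV.

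Liver RNA of male Lewis rats, an inbred strain, was measured on 16 single-colour whole-genome arrays, 3 each at 3, 9, 12 and 18 months of age and 4 at 24 months. Age is the difference that the labels give between the groups, which shared strain, sex, tissue and specific-pathogen-free housing, and no treatment is named. The labels do not tell whether every array had an animal of its own, so p-values measure the spread between these samples, which may be technical. The study asks how liver transcript levels differ with age, and the 5 respiratory complexes are compared here over the 5 ages.

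Mitochondria pass electrons from NADH through complex I and from succinate through complex II to ubiquinone, then through complex III and cytochrome c to complex IV, where oxygen is reduced. Complexes I, III and IV pump protons across the inner membrane, and complex V, the ATP synthase, lets them flow back while it makes ATP. All genes described here are nuclear, whereas a few core subunits of complexes I, III, IV and V are encoded by mitochondrial DNA. Hepatocytes, the main cells of liver, are rich in mitochondria and use this ATP for gluconeogenesis, urea synthesis and secretion.

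The array probes on which the results turn are given here because genes with more than 1 probe, such as Cox7c and Cox6a2, gave different values by probe. The chosen probe of a gene is the brightest that passed the filter. Positions are those of the array design on the rat build rn4, and each probe has 60 bases, of which the first 30 are printed where the probe may lie outside the coding part.
Cox7c, other probe, rn4 chr2:15254519-15254578, minus strand: taactgaatcttctgggattaaaaatgcac
Cox6a2, chosen probe, rn4 chr1:187464932-187464991, minus strand: acacttggcgcctcctgacctttgtgctgg
Cox6a2, other probe, rn4 chr1:187465250-187465309, minus strand: gactgagtgaaggagacagagaaggacagt
Cox8b, rn4 chr1:201057360-201057419, minus strand: ccagcaggatgggtcttatcccacttggag
Sdhc, rn4 chr13:87014610-87014669, minus strand: catttttcatttctaggaacatacaccttt
Atp5hl1, rn4 chr16:51796337-51796396, minus strand: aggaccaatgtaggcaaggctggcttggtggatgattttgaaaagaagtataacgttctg
Cyc1, rn4 chr7:114395215-114395274, plus strand: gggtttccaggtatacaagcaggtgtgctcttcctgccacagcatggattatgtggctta
Atp5f1b, rn4 chr7:1378451-1378510, plus strand: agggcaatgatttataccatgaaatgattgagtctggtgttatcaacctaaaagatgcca

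A few arrays stood apart from their age. Array 3 of 24 months held the lowest value of 51 of the 85 members (60.0%), against 14.1% of all genes tested. Array 4 of 24 months held the highest value of 16 members (18.8%, against 6.73% of all genes), and array 2 of 12 months the lowest of 18 (21.2%, against 14.6%). Array 3 of 9 months held the highest value of 28 members (32.9%, against 5.21% of all genes). Beyond this, 5 arrays, numbers 3 and 4 of 12 months and all 3 of 18 months, were scanned in a session of their own, called session 2 here. The arrays of 24 and 3 months were scanned on different days and shared no slide, so slide and scan day cannot be told apart from age in that comparison. Between 52.49% and 65.19% of probes per array lay well above background, and 83 of the 85 members did so on all 16 arrays, Cox8b and Ndufs4 being the exceptions. All 5 hepatocyte markers (Alb, Apoa1, Ttr, Cps1, Hnf4a) were well above background at 24 and at 3 months. In whole liver, fewer cells of a type and less RNA per cell cannot be told apart.

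Across the 5 ages, few oxidative phosphorylation genes changed beyond the spread between arrays. By limma's F test with Benjamini-Hochberg adjustment over all genes, 10 of 85 members (11.8%) were called at adjusted p under 0.05, against 37.7% of all genes tested. They included Ndufs4 and Ndufa11 of complex I, Sdhd of complex II, Cox4i1, Cox6a2, Cox7c and Cox8b of complex IV, Atp5mc2 of complex V, and the non-subunit Atp5hl1. None of the 7 tested genes of complex III was called by limma's F test. When these arrays (2 of 12 months, 3 and 4 of 24 months) were left out, an alternative chosen after seeing the data, 43 members were called, against 57.0% of all genes. With array 4 of 24 months alone left out, 26 members were called, and 43.6% of all genes.

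**Figure D1:**
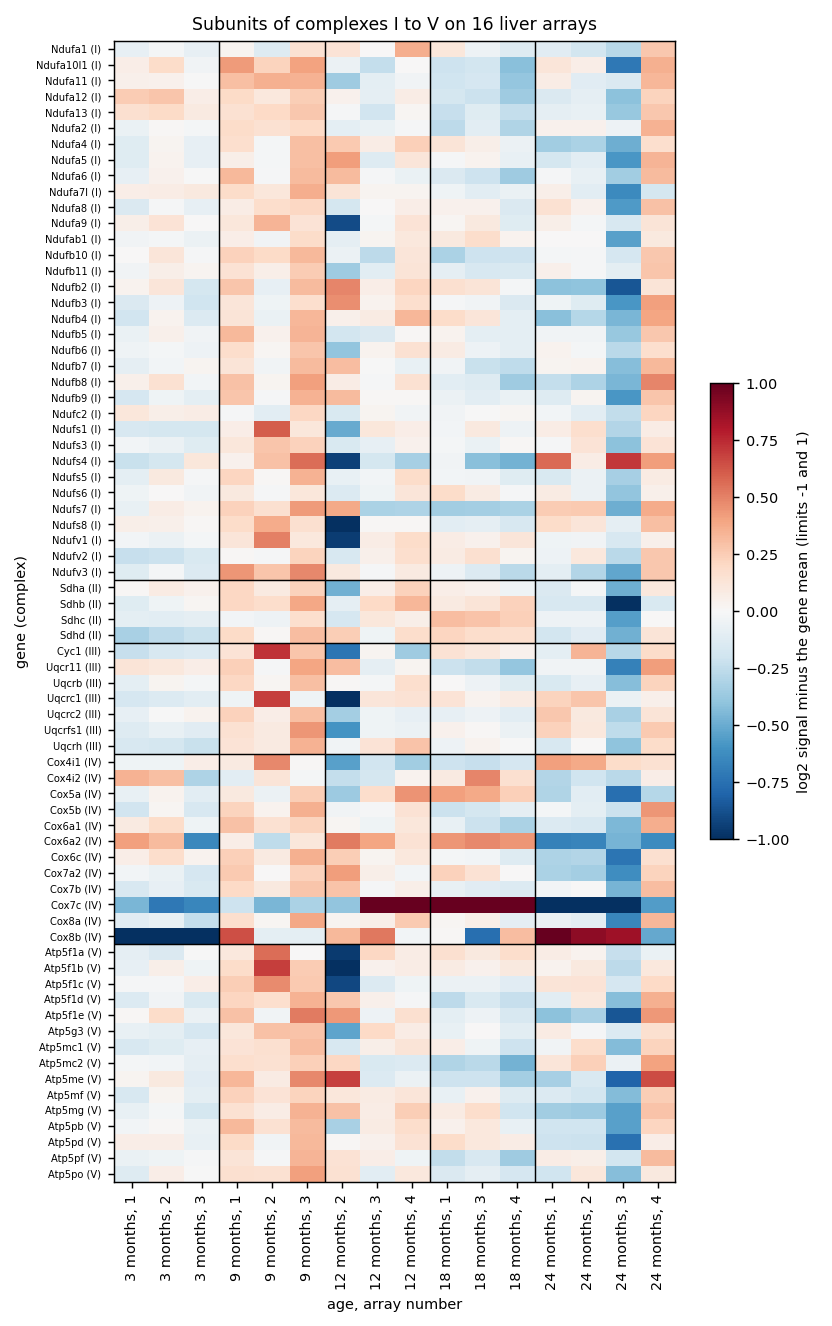
Rows are subunit genes of complexes I to V and each column is an array, ordered by age. Colour gives the log2 signal minus the gene's mean over the 16 arrays, limited to -1 and 1. The columns of 9 months are mostly red, array 3 of 24 months is mostly blue, and Cox7c is high on the 5 arrays of scan session 2.

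At 24 against 3 months, the median change of every complex lay near 0. Values throughout are log2 signal relative to the array's 75th percentile, and changes are differences of these. Of the 85 members, 1 rose (4.16% of all genes tested rose) and 0 fell (9.3% of all genes fell), by limma's moderated test with adjustment over all genes. By the same test 8 members had an unadjusted p under 0.05. The share of all genes at an unadjusted p was not taken, here or for the other comparisons. Such counts therefore show no excess among the members. The median log2 change was -0.02 for complex I (range -0.39 to 0.54), -0.12 for complex II (range -0.33 to 0.11), 0.10 for complex III (range -0.18 to 0.26), -0.17 for complex IV (range -0.64 to 2.07) and 0.02 for complex V (range -0.34 to 0.22). Over all genes tested the median was -0.05. Of the members, 95.3% changed by less than 0.5 in either direction, against 73.1% of all genes. These medians depend on the background correction: under normexp they were -0.33, -0.45, -0.17, -0.40 and -0.27 for complexes I to V, since array 3 of 24 months then lay at -1.40 to -1.59 below the gene means in every complex. The median over all genes was 0.10 under that correction.

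The gene that rose was Cox8b, the isoform of subunit 8 of cytochrome c oxidase known from heart and skeletal muscle. Its values were -1.37, -2.31, -2.36 and -3.72 at 24 months, against -4.69, -4.52 and -4.31 at 3 months. All 24-month arrays lay above all 3-month arrays, and array 4 was the nearest of them. The ages between also lay above 3 months. Values were -3.30 to -2.56 at 9 months, -3.23 to -2.68 at 12 months and -3.96 to -2.90 at 18 months. Array 4 of 24 months lay below all arrays of 9 and 12 months. The log2 change at 24 against 3 months was 2.07 (SE 0.42, 4.2-fold, adjusted p = 0.00539 by limma). Its size depended on the background correction, and under normexp it was 0.96 (adjusted p = 0.0429 by limma). The signal is dim: the probe was well above background on 3 of 4 arrays at 24 months and on 2 of 3 at 3 months. With the slide as a random block the change was 1.77 and the call was lost (adjusted p = 0.241). Of 5 muscle markers only Myl11 passed the filter, and its change was -0.09 (SE 0.15, adjusted p = 0.772 by limma). Cox8a, the isoform of this subunit found in most tissues, averaged 7.76 ± 0.40 at 24 months (SD, n = 4) and 7.74 ± 0.09 at 3 months (SD, n = 3).

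**Figure D2:**
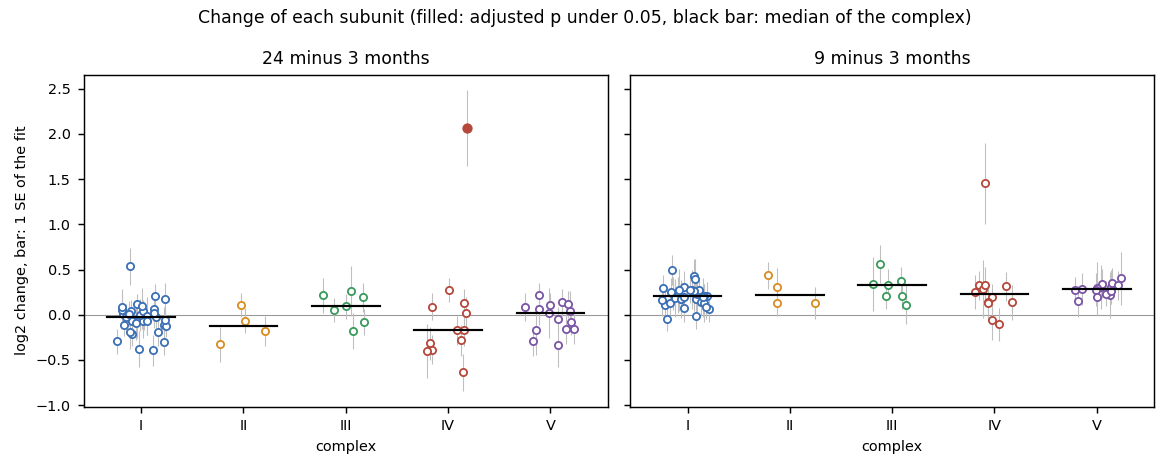
Log2 change of each subunit gene, by complex, for 24 minus 3 months (left) and 9 minus 3 months (right). Points are genes, grey bars 1 SE of the fit, black bars medians, and filled points have an adjusted p under 0.05. On the left the points scatter around 0 with Cox8b at 2.07, and on the right 69 of the 73 subunits lie above 0.

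Between 9 and 3 months the subunits were mostly higher by a small amount, and no single gene was called. Of the 85 members, 77 had a positive difference, with a median of 0.22 against 0.03 over all genes tested. At adjusted p under 0.05 by limma, 0 rose (1.84% of all genes rose) and 0 fell (3.35% of all genes fell), and 7 had an unadjusted p under 0.05. In 48 members (56.5%) all 3 arrays of 9 months lay above all 3 arrays of 3 months, against 21.5% of all genes. This held for 16 of 35 genes of complex I, 4 of 4 of complex II, 5 of 7 of complex III, 6 of 12 of complex IV and 12 of 15 of complex V. Among the non-subunits it held for 4 of 11. The median over all 73 subunits was between 0.09 and 0.28 above the gene means at 9 months, and between -0.08 and 0.01 at 3 months. All arrays of 3 months and array 2 of 9 months lay on slide 1, and arrays 1 and 3 of 9 months on slide 2. Array 2 had the lowest of the 9-month medians, 0.085, against 0.177 and 0.281 on arrays 1 and 3. Only array 2 shared the slide of the 3-month arrays, so slide and age cannot be fully told apart in this comparison. The 9-month arrays stayed above those of 3 months in the median over all subunits under normexp, under quantile normalization and in the authors' series table. The number called depended on the fit: it was 11 of 85 with these 2 ages alone, where 19.0% of all genes were called. Within slide 1, which held array 2 of 9 months and all arrays of 3 months, it was 9, with 17.1% of all genes, and the lone 9-month array was assumed to vary like those of 3 months. The hepatocyte markers were higher as well, with a score of 0.212 to 0.315 at 9 months and of -0.28 to -0.04 at 3 months. A score is the mean over the markers, not the median, of the log2 signal minus the gene mean. By the same measure the Kupffer markers scored -0.08 to 0.15 at 9 months and -0.66 to -0.53 at 3 months, and 2 of 6 rose. The T and NK cell markers scored -1.40 to -0.63 at 9 months and 0.58 to 0.70 at 3 months, and 3 of 5 fell. The part of these cells in the subunit values was not tested.

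**Figure D3:**
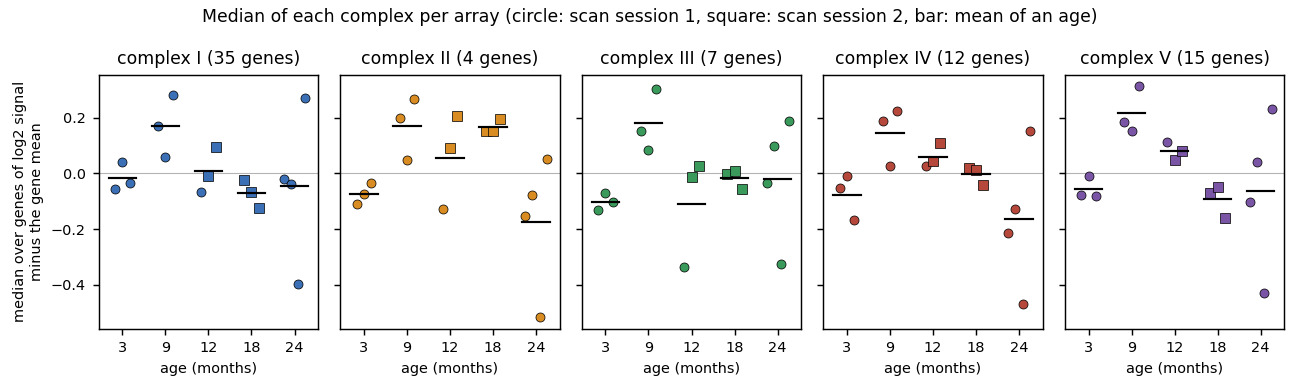
Median over the genes of each complex of the log2 signal minus the gene's mean, for each array by age in months. Circles are arrays of scan session 1, squares those of session 2, and bars the mean of an age. All 5 complexes are higher at 9 than at 3 months, and at 24 months they spread from array 3 at the bottom to array 4 at the top.

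Complex I, the largest of the complexes, takes electrons from NADH. Its median relative to the gene means was, from the youngest to the oldest age, -0.02 ± 0.05, 0.17 ± 0.11, 0.01 ± 0.08, -0.07 ± 0.05 and -0.05 ± 0.27 (SD between arrays, n = 3, and 4 for the oldest). The spread was widest at 24 months, where it ran from -0.40 on array 3 to 0.27 on array 4. Ndufs4, an accessory subunit needed for late assembly, had -2.62, -3.11, -2.48 and -2.77 at 24 months, against -3.22, -3.60 and -3.66 at 18 months. The 24-month arrays all lay above those of 18 months, and the gene rose by 0.75 (SE 0.21, adjusted p = 0.0169 by limma). It was 0.54 higher at 24 than at 3 months (SE 0.21), which did not pass the test (adjusted p = 0.111 by limma).

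Other genes of complex I showed smaller differences. Ndufa2, a small accessory subunit, rose by 0.32 at 24 against 18 months (SE 0.11, adjusted p = 0.0477 by limma), and the call was lost when most single arrays were left out. Ndufa11, an accessory membrane subunit, was called over all ages (adjusted p = 0.0308 by limma) and averaged 5.13 ± 0.03 at 9 months, with 4.44 to 4.76 at 12 months and 4.41 to 4.63 at 18 months. For 24 against 3 months the difference was 0.21 for the core subunit Ndufv2 and -0.38 for the accessory subunit Ndufb2 (adjusted p = 0.350 and 0.234 by limma).

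Complex II oxidizes succinate and is also an enzyme of the tricarboxylic acid cycle. All 4 of its subunits are nuclear. Sdha, the flavoprotein, differed by -0.18 at 24 against 3 months (SE 0.17, adjusted p = 0.535 by limma). Sdhb, the iron-sulfur subunit, had 5.45, 5.45, 4.57 and 5.46 at 24 months, against 5.49, 5.57 and 5.63 at 3 months. All arrays of 24 months lay below those of 3 months, array 3 by far the most, and the difference of -0.33 (SE 0.19) did not pass the test (adjusted p = 0.305 by limma). Sdhc, a membrane anchor, had 4.73, 4.73, 4.23 and 4.78 at 24 months, against 5.09, 5.06 and 5.02 at 18 months, and fell by 0.44 (SE 0.14, adjusted p = 0.0306 by limma). Sdhd, the other anchor, was called over all ages (adjusted p = 0.0481 by limma), with ranges, from the youngest to the oldest age, of 6.05 to 6.15, 6.38 to 6.68, 6.33 to 6.62, 6.54 to 6.59 and 5.89 to 6.50.

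The median of complex II was set against that of complex I on each array, a contrast chosen after seeing the data. The difference was -0.13, -0.04, -0.12 and -0.22 on the arrays of 24 months, against 0.18, 0.22 and 0.32 on those of 18 months. At 3 months it was -0.11 to 0.00 and at 9 months -0.01 to 0.03. On the 12-month arrays it was 0.10 and 0.11 in session 2 and -0.06 in session 1. Complex II thus stood above complex I on all 5 arrays of session 2, by 0.10 to 0.32, and on 1 array of session 1. The same 5 arrays were the highest under normexp, quantile normalization and the authors' series table, and session and age cannot be told apart at 18 months.

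Complex III passes electrons from ubiquinol to cytochrome c. In the same order of ages its median was -0.10 ± 0.03, 0.18 ± 0.11, -0.11 ± 0.20, -0.02 ± 0.03 and -0.02 ± 0.23 (SD, n as above). Cyc1, the cytochrome c1 subunit, had 3.31, 3.74, 3.13 and 3.59 at 24 months, against 3.17, 3.24 and 3.27 at 3 months, so the groups overlapped (change 0.22, SE 0.19, adjusted p = 0.522 by limma). At 9 months it was 0.56 higher than at 3 months, with an adjusted p of 0.152. Uqcrc1, a core protein, differed by 0.26 at 24 against 3 months (SE 0.28), Uqcrb by -0.08 and Uqcr11 by -0.18, and none of the 3 passed the test (adjusted p = 0.601, 0.770 and 0.623 by limma). Uqcrq, another subunit of the complex, could not be tested. Its single probe was well above background on 2 of 16 arrays, at -2.59 on array 4 of 24 months and -3.07 on array 2 of 9 months, and lay at -7.02 to -4.42 on the others. Cycs, which carries electrons between complexes III and IV, averaged 5.73 ± 0.38 at 24 months (SD, n = 4) and 5.89 ± 0.07 at 3 months (SD, n = 3), a change of -0.16 (SE 0.19, adjusted p = 0.649 by limma).

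Complex IV reduces oxygen, and several of its nuclear subunits come in isoforms that differ between tissues. It held 4 of the 10 genes called over all ages, 33.3% of its 12 tested genes, against 37.7% of all genes. Cox4i1, the common isoform of subunit 4, had 5.38, 5.35, 5.15 and 5.12 at 24 months, against 4.76, 4.74 and 4.8 at 18 months, and rose by 0.48 (SE 0.13, adjusted p = 0.0159 by limma) with no overlap of the arrays. At 12 against 9 months it had fallen by 0.55 (SE 0.14, adjusted p = 0.0357 by limma). Cox4i2, the isoform known from lung, was not called in any comparison, and its change at 24 against 3 months was -0.28 (SE 0.17, adjusted p = 0.316 by limma). Cox5a, a subunit on the matrix side, had 5.71, 5.91, 5.26 and 5.73 at 24 months, against 6.42, 6.39 and 6.25 at 18 months, and fell by 0.70 (SE 0.19, adjusted p = 0.0129 by limma).

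Cox6a2 is the isoform of subunit 6A known from heart and skeletal muscle, and Cox6a1 the common one. By its chosen probe Cox6a2 had -1.14, -1.12, -0.93 and -1.09 at 24 months, against -0.02, 0.02 and -0.02 at 18 months. It fell by 1.07 (SE 0.21, 2.09-fold, adjusted p = 0.00211 by limma). At 3 months the same probe had -0.05, -0.15 and -1.11, so that 1 of the 3 arrays lay among those of 24 months, and the change of -0.64 did not pass (adjusted p = 0.0608 by limma). The other probe differed by -0.04 between 24 and 3 months. Between 24 and 18 months it averaged -3.53 ± 0.39 (SD, n = 4) and -2.29 ± 0.09 (SD, n = 3), a difference of -1.24. Cox6a1 differed by -0.17 at 24 against 3 months (SE 0.17, adjusted p = 0.536 by limma). Of the remaining isoforms, Cox7a2 changed by -0.17 at 24 against 3 months, and Cox5b by 0.14, with the second Cox5b probe at -0.22. The isoforms Cox6b2, Cox7b2 and Cox8c, known from testis, were well above background on 0 to 4 of 16 arrays and were not tested.

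By the chosen probes, the largest change among the members was that of Cox7c, a small subunit. Its chosen probe had 1.40, 1.40, 0.90 and 1.84 at 24 months, against 4.17, 4.16 and 3.96 at 18 months, and fell by 2.71 (SE 0.30, 6.55-fold, adjusted p = 2.8e-05 by limma). Values were 1.68 to 1.94 at 3 months and 1.94 to 2.19 at 9 months. At 12 months array 2 had 2.0 and arrays 3 and 4, of session 2, had 3.42 and 3.50. The 5 arrays of session 2 thus all lay above the 11 of session 1, also within 12 months. The other Cox7c probe did not show this and ran from -1.50 to -0.52 over the 16 arrays, with -1.08 to -0.76 at 18 months. With the session as a block, the change of the chosen probe at 24 against 18 months was -1.26 (adjusted p = 0.0287 by limma).

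Atp5hl1 followed a like course. It had -1.46, -1.36, -1.78 and -0.95 at 24 months, against 0.81, 0.88 and 0.80 at 18 months, and fell by 2.21 (SE 0.20, 4.64-fold, adjusted p = 6.09e-06 by limma). At 18 against 12 months it rose by 1.09 (SE 0.21, adjusted p = 0.0227 by limma), and within session 2 by 0.85 (adjusted p = 0.0588 by limma). On arrays 3 and 4 of 12 months it had -0.11 and 0.08, and on array 2, of session 1, it had -0.74. By their chosen probes, 2 members (2.35%), Cox7c and Atp5hl1, lay higher on all arrays of session 2 than on any of session 1. Over all genes this share was 4.18%. Atp5mc2 and Emc8 were the 2 that lay lower on all arrays of session 2, against 3.07% of all genes. Among probes not chosen, the second Ndufc2 probe had 1.59 to 1.76 at 18 months and -2.65 to -1.18 at 24 months. It lay higher on all arrays of session 2, while the chosen Ndufc2 probe ran from 5.73 to 6.19. With the mean of a gene's probes Ndufc2 changed by -1.91 at 24 against 18 months (adjusted p = 0.000186 by limma). The dimmest Atp5g3 probe had 3.93 to 4.35 in session 2 and 2.98 to 3.91 in session 1.

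Complex V makes ATP with a catalytic F1 head on a membrane-bound F0 part. From the youngest to the oldest age its median was -0.06 ± 0.04, 0.22 ± 0.09, 0.08 ± 0.03, -0.09 ± 0.06 and -0.07 ± 0.28 (SD, n as above). Several genes encode the same c-ring protein of F0. Among them, Atp5mc2 had 7.74, 7.86, 7.56 and 8.02 at 24 months, against 7.32, 7.35 and 7.15 at 18 months, and rose by 0.52 (SE 0.13, adjusted p = 0.00884 by limma). With the session as a block its change was 0.17, and the call was lost (adjusted p = 0.616 by limma). Atp5mc1 and Atp5g3, the other genes of the c-ring, changed by 0.11 and 0.14 at 24 against 3 months (adjusted p = 0.686 and 0.617 by limma), and another, dimmer Atp5g3 probe by -0.06. Atp5f1e and Atp5pd had the lowest differences at 24 against 3 months, -0.34 and -0.29 (adjusted p = 0.406 and 0.269 by limma). Atp5if1, the inhibitor of the ATP synthase, and Uqcr10 and Atp5mk had other names on the array and are no members. Atp5if1 was called over all ages (adjusted p = 0.00733 by limma) and was highest at 3 months, with a mean of 4.96. It rose by 0.35 at 24 against 18 months (SE 0.11, adjusted p = 0.0290 by limma). At 24 against 3 months it differed by -0.31 (SE 0.11, adjusted p = 0.0786 by limma). Neither Uqcr10 nor Atp5mk was called over all ages (adjusted p = 0.423 and 0.166 by limma).

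At 24 against 18 months, 4 members rose (11.1% of all genes rose) and 6 fell (14.9% of all genes fell), by limma with adjustment over all genes. By the same test 22 members had an unadjusted p under 0.05, where 26% of all genes passed even the adjusted threshold. The genes that rose were Ndufs4, Ndufa2, Cox4i1 and Atp5mc2, and those that fell included Sdhc, Cox5a, Cox6a2, Cox7c and Atp5hl1. All arrays of 24 months were of session 1 and all of 18 months of session 2, so only the 12-month arrays tie age to session. With the session as a block, a gene's session term is thus the difference of arrays 3 and 4 of 12 months from array 2. That array 2 stood apart, so calls kept, lost or gained in that fit rest on it. The change of Atp5f1b, which was low on it, went from -0.08 to 1.355. With the session as a block 12 members were called higher and 3 lower, with 13.1% of all genes called. Under quantile normalization 4 were called higher and 13 lower, with 26.4% of all genes called. The calls of Sdhc, Cox5a, Ndufa2 and Atp5mc2 were lost with the session as a block, with adjusted p of 0.644, 0.954, 0.217 and 0.616 by limma. The calls of Ndufs4, Cox4i1, Cox6a2, Cox7c and Atp5hl1 were kept in that fit, with adjusted p of 0.0174, 0.0474, 0.0470, 0.0287 and 0.00863.

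**Figure D4:**
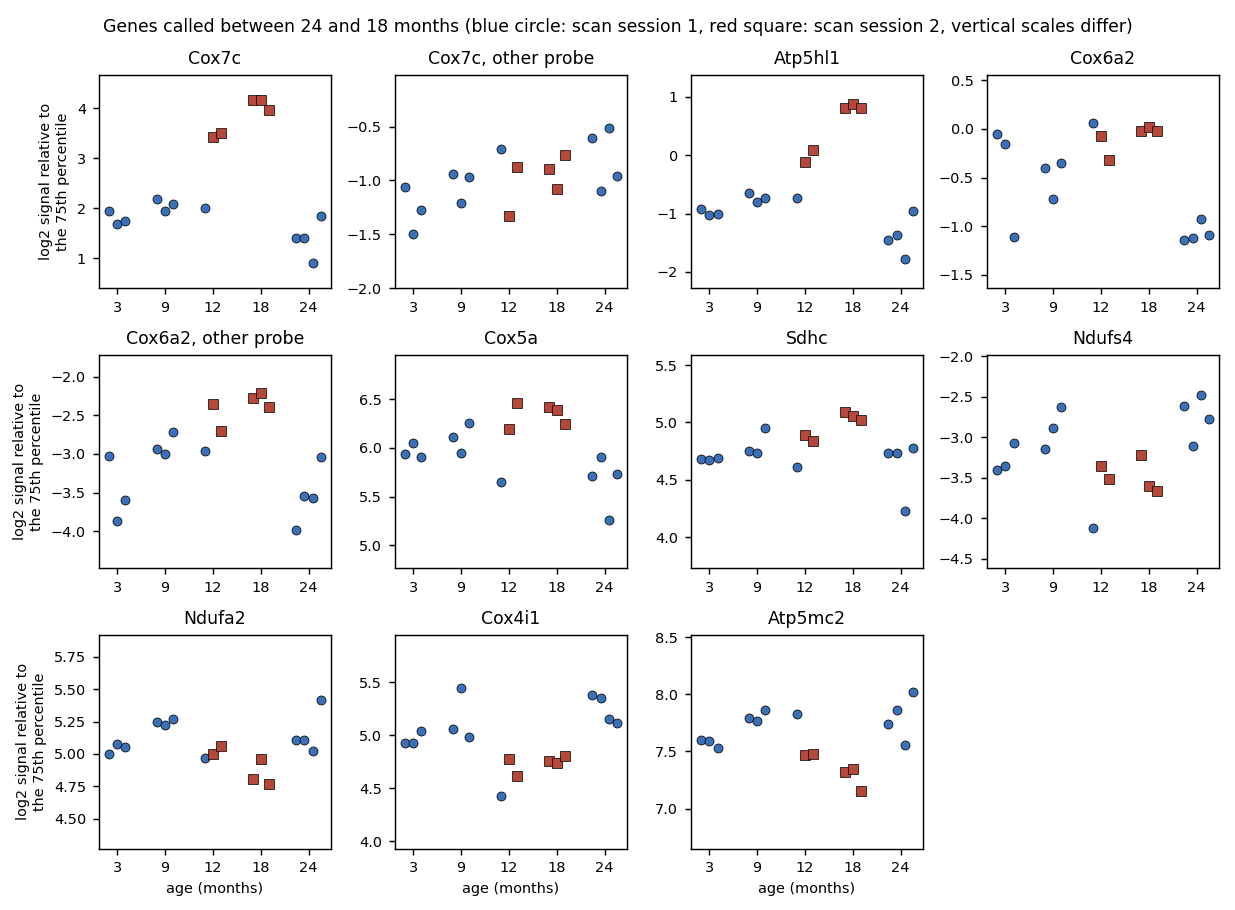
Log2 signal relative to the array's 75th percentile, by age in months, for genes called at 24 against 18 months and for the second probes of Cox7c and Cox6a2. Blue circles are arrays of scan session 1 and red squares those of session 2, and the vertical scales differ between panels. The chosen Cox7c probe and Atp5hl1 are high on all 5 red squares, while the other Cox7c probe is not.

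At 12 against 9 months, 2 members fell (3.04% of all genes fell) and 0 rose (3.27% of all genes rose), and 16 had an unadjusted p under 0.05. The 2 that fell were Cox4i1 and Atp5f1c, the gamma subunit of F1, which had 4.58, 5.35 and 5.45 at 12 months, against 5.74, 5.96 and 5.75 at 9 months, a change of -0.69 (SE 0.19, adjusted p = 0.0461 by limma). The count depended on the fit: 23 members were called lower with the slide as a random block (22.5% of all genes called), 19 with the session as a block (20.5%) and 0 under normexp (0.768%). Without array 2 of 12 months none was called lower, and Cox7c (1.39) and Atp5hl1 (0.71) were called higher. In that fit the change of Atp5f1c was -0.42 (adjusted p = 0.0536 by limma) and that of Cox4i1 -0.46 (adjusted p = 0.0604 by limma). At 18 against 12 months, 1 member rose (1.03% of all genes rose), Atp5hl1, and 0 fell (0.307% of all genes fell), with 5 at an unadjusted p under 0.05. Neighbouring steps share the arrays of the age between them.

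Some subunits of the F1 head differed between arrays of 1 age. On array 2 of 12 months Atp5f1b, the catalytic beta subunit of F1, had 3.44, and arrays 3 and 4 had 4.86 and 4.89. The median difference of that array from the other 2 was -1.09 over the alpha, beta and gamma subunits (Atp5f1a, Atp5f1b, Atp5f1c), lower in 3 of 3, and 0.14 over the other 12 genes of complex V. Those 12 include the delta and epsilon subunits of F1, Atp5f1d and Atp5f1e, which were higher on that array by 0.25 and 0.38. It was -0.80 over the core proteins of complex III (Uqcrc1, Uqcrc2) and -0.56 over its heme and iron-sulfur subunits (Cyc1, Uqcrfs1). Within complex I it was -0.26 over the 7 electron-carrying core subunits, lower in 6 of them, and -0.02 over the 28 supernumerary ones, lower in 15. Array 2 of 9 months went the other way, with 0.47 over the F1 catalytic group and -0.15 over the rest of complex V relative to the other arrays of its age. Of the other groups, 4 of 7 complex I core subunits, 1 of 2 core proteins of complex III and 1 of its 2 heme and iron-sulfur subunits were higher on it.

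These groups were formed after seeing the data and have no test. On array 2 of 12 months, 17 members (20.0%) were lower by more than 0.5 than the mean of arrays 3 and 4, as were 20.4% of all genes. A further 11 (12.9%) were higher by more than 0.3, against 35.7% of all genes. All 11 of these were lower on array 2 of 9 months than on the other arrays of that age. Of the 17 that were lower on array 2 of 12 months, 11 were higher on array 2 of 9 months. Most members were lower on that array of 9 months: of 28 supernumerary subunits of complex I, 3 were higher on it. Of the other 12 genes of complex V, 1 was higher on it. The share of all genes was not taken, so these counts do not show that the 2 arrays mirror each other. Since array 2 of 12 months was also the only array of its age in session 1, session and array cannot be told apart for it.

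**Figure D5:**
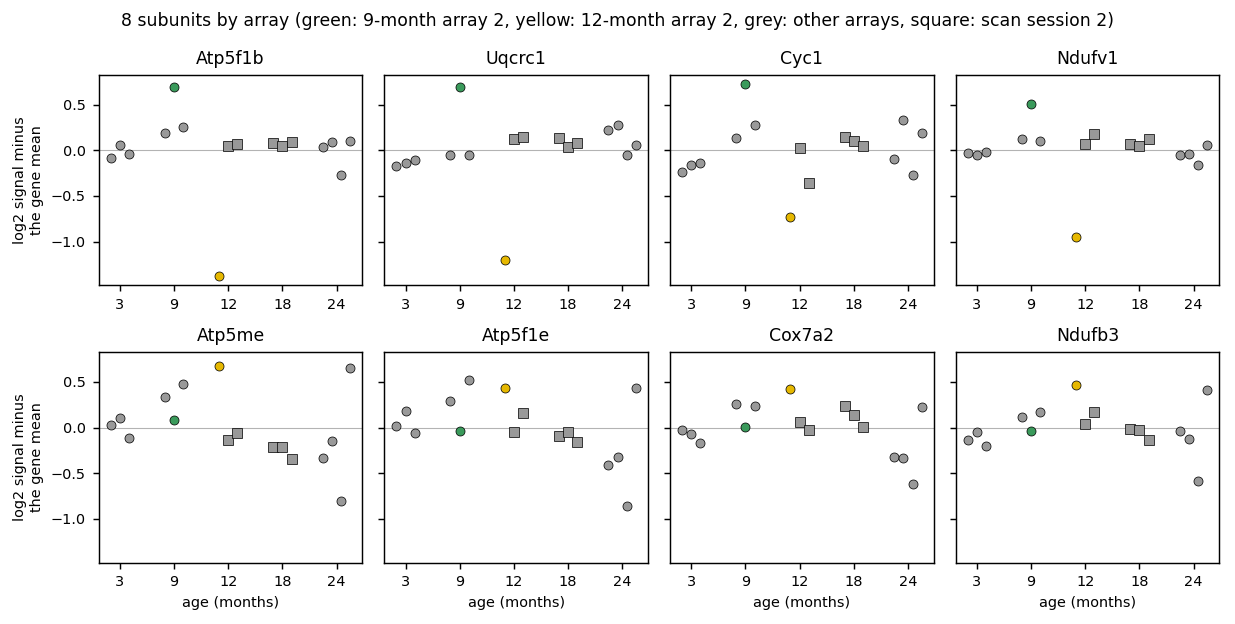
Log2 signal minus the gene's mean, by age in months, for 4 subunits that carry out catalysis or electron transfer or form a core (top) and 4 small subunits (bottom), picked after seeing their values. Green is array 2 of 9 months, yellow array 2 of 12 months, grey the other arrays, and squares are scan session 2. In the top row the yellow point is the lowest and the green point the highest, and in the bottom row the yellow point is high.

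On arrays 3 and 4 of 24 months all 5 complexes lay low or high together. The medians of complexes I to V on array 3 were -0.40, -0.52, -0.33, -0.47 and -0.43, and on array 4 they were 0.27, 0.05, 0.19, 0.15 and 0.23. By the mean over genes, the hepatocyte markers scored -0.53 on array 3 and 0.17 on array 4, and the tricarboxylic acid cycle genes -0.42 and 0.18. On arrays 1 to 4 of 24 months the Kupffer markers scored 0.72, 0.53, 1.10 and 0.19, and the erythroid markers -0.84, -0.44, 1.76 and 0.44. The T and NK cell markers scored 0.70, 1.92, 1.92 and 0.56. On the same arrays, in this order, the median over all subunits was -0.05, -0.038, -0.423 and 0.225. At 3 months the scores of Kupffer, erythroid and T and NK cells were -0.66 to -0.53, 0.04 to 0.20 and 0.58 to 0.70. Of 6 Kupffer markers 4 rose at 24 against 3 months, among them Marco by 2.30, and all 6 were above background on every array of both ages. The part of these cells in the subunit values at 24 months was not tested.

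Other marker lists moved less uniformly at 24 against 3 months. None of the 5 hepatocyte markers was called by limma. Of 5 T and NK cell markers 1 rose (Cd2) and 1 fell (Gzma), of 4 stellate and fibroblast markers 2 fell (Col3a1, Pdgfrb), and 1 marker rose among 4 endothelial (Stab2), 4 cholangiocyte (Epcam) and 3 pancreas (Cpb1) markers. No tested marker was called among the B cell (1), erythroid (3), muscle (1) and adipose (2) lists.

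Genes around the respiratory chain gave few calls at 24 against 3 months. Of 35 assembly factors 1 fell and 0 rose, with a median of 0.05; the gene was Cox16, an assembly factor of complex IV (-0.60, SE 0.16, adjusted p = 0.0276 by limma). Of 17 regulators of mitochondrial biogenesis 1 rose, Ppara, the fatty acid receptor (0.84, SE 0.23, adjusted p = 0.0274 by limma), and the median was 0.15. Of 18 genes of mitochondrial DNA upkeep and transcription 1 fell, Polg, the catalytic subunit of the mitochondrial DNA polymerase (-0.78, SE 0.24, adjusted p = 0.0441 by limma), with a median of 0.01. Of 20 carriers and channels 1 rose, Chchd3, a cristae protein (0.44, SE 0.13, adjusted p = 0.0440 by limma), with a median of 0.10.

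In the tricarboxylic acid cycle, which feeds the chain with NADH and succinate, 2 of 19 genes rose and 1 fell, with a median of 0.03. Fh, fumarase, averaged 7.10 ± 0.36 at 24 months (SD, n = 4) and 6.52 ± 0.11 at 3 months (SD, n = 3), and rose by 0.58 (SE 0.17, adjusted p = 0.0351 by limma). Cs, citrate synthase, fell by 0.51 (SE 0.16, adjusted p = 0.04996 by limma, just under the threshold). All medians of these lists stand beside -0.05 for all genes.

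RefSeq promoters of build GRCr8 were matched for 65 of the 78 subunit and carrier genes, and the 250 bases before the start were read on both strands. The motif of NRF1, a regulator of nuclear respiratory genes, was taken as GCGCATGC (reverse GCATGCGC) and stood in 10 of 65 promoters (15.4%), against 2.2% of all 33469. These were those of Cycs, Sdhb, Cox8c, Ndufa6, Ndufa11, Uqcrc1, Atp5mc2, Atp5mg, Atp5me and Atp5po. The motif of GABPA, an ETS factor, was taken as ACCGGAAG (reverse CTTCCGGT) and stood in 5 (7.69%, against 2.02%), and that of YY1 as AAGATGGC (reverse GCCATCTT) in 2 (3.08%, against 1.63%). The ERRA motif TCAAGGTCA (reverse TGACCTTGA) stood in 0, against 0.388%. The GABPA motif ends in the letters with which the YY1 motif begins, so such matches can share bases, and a match describes the letters and not a bound site. The carrier gene and a complex II anchor are shown as examples, with the match in capitals.
Cycs, GRCr8 chr4:80984768-80985017, minus strand, NRF1 motif in capitals: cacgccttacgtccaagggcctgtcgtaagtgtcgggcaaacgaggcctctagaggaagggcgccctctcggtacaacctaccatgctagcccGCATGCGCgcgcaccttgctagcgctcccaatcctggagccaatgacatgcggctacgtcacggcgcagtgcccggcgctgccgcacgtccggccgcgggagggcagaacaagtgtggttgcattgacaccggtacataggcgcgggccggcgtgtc
Sdhd, GRCr8 chr8:59850642-59850891, minus strand, GABPA motif in capitals: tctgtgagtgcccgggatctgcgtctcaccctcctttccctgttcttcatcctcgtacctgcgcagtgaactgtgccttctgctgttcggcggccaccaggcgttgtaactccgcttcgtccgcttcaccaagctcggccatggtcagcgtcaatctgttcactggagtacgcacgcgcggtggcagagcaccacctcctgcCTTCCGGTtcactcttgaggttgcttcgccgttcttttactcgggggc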

How the data were processed

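Agilent scanner files of 16 arrays were used. Per the file headers, the processed signal, mean signal and background columns are intensity values from Feature Extraction 10.7.3.1 without normalization between arrays, and the flags (above background, outlier, saturated) are columns of another kind. No spot was saturated. The labelling kit that the labels name is one for microRNA, although the array reads mRNA, and this was not resolved. A value table deposited for the series is in log2, with a normalization not given in the sources used here. Its median per array was 4.923 to 4.939, its correlation with the scanner values 0.997 to 1.00 over probes, and it was used as an alternative.

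From log2 of the processed signal, the array's own 75th percentile was subtracted. Outlier spots were set to missing (79 values), spots of a probe were averaged, and probes were retained that some age had well above background on each of its arrays (25698 of 41012 probes). A gene took its kept probe of highest mean, named through its accession for 18028 probes and by the array otherwise. A mean per age was fitted over all 16 arrays with limma 3.58.1 in R 4.3.3, and p-values were adjusted by Benjamini-Hochberg over 21489 genes, with a threshold of 0.05. The fit was tested on simulated data. Array number limits precision.

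Named genes were those of smallest F p-value per complex, the extremes at 24 against 3 months, the first 2 called per step, complex II, Cyc1, Cycs, isoform groups and up to 2 called genes per list. Others were chosen after their values were seen. The members and lists were chosen with earlier results of these data known. Alternatives changed the background correction (normexp, offset 50), normalization, values, filter, probe rule, slide, scan session, replicate block, samples fitted and arrays left out. Some genes and a probe sequence are not reported here. Positions are from the array design, promoters from another build.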

Additional observations from a re-analysis of the deposited data

Results flagged for a closer look

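Among 39 values tested for an array far from the rest of its group, 2 stood out, both in complex II at 24 months. Sdhb had 4.57 on array 3 of 24 months, where the other 3 arrays had 5.45 to 5.46. Sdhc had 4.23 on the same array, where the others had 4.73 to 4.78. Chance alone flags some values in such a search. The fall of Sdhc at 24 against 18 months was -0.31 without this array (adjusted p = 0.0538 by limma).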

How the results depend on the processing

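Counts of members called are in the order 24 against 3, 9 against 3, 12 against 9, 18 against 12 and 24 against 18 months. The last count is for any age. Shares of all genes called follow in brackets, in the same order. The counts were 1, 0, 2, 1, 10 and 10 (13.5%, 5.18%, 6.31%, 1.34%, 26% and 37.7%). They became 1, 0, 0, 0, 2 and 2 with normexp (2.29%, 1.63%, 0.768%, 0.172%, 4.68% and 7.64%). With quantile normalization they were 1, 0, 1, 1, 17 and 16 (12.7%, 5.59%, 6.73%, 1.47%, 26.4% and 37.9%). In the authors' series table they were 2, 0, 1, 1, 17 and 15 (12.6%, 5.45%, 6.56%, 1.46%, 26.3% and 37.7%). Without a filter they were 1, 0, 0, 1, 9 and 7 (7.14%, 2.26%, 1.96%, 0.669%, 15.2% and 21.5%). The filter on all 16 arrays gave 0, 0, 4, 1, 9 and 9 (11.6%, 6.66%, 8.7%, 1.35%, 22.7% and 36.8%). The slide as a random block (correlation 0.684) gave 0, 8, 23, 0, 2 and 18 (1.47%, 9.53%, 22.5%, 0%, 4.48% and 22.4%). The session as a block gave 2, 0, 19, 0, 15 and 19 (18.1%, 7.61%, 20.5%, 0.8%, 13.1% and 39.6%). With the mean of a gene's probes, 3 members rose and 8 fell at 24 against 18 months, with 25.2% of all genes called. In that fit 11 members were called for any age (37% of all genes), and the other comparisons kept their counts. The fit of the 2 compared ages alone gave 1, 11, 0, 0 and 7 for the 5 age pairs (9.56%, 19%, 1.05%, 0.00931% and 19.5%). Within slide 1, 9 were called at 9 against 3 months, and within slide 2, 9 at 12 against 9 months. Of alternatives chosen after seeing the data, session 1 alone gave 15 at 12 against 9 months and session 2 alone 0 at 18 against 12 months. Within session 1 and slide 2 the 12-month arm is array 2 alone, and within slide 1 the 9-month arm is array 2 alone, so the spread comes from the other arrays of the fit and the lone array is assumed to vary like them. Without array 2 of 12 months and arrays 3 and 4 of 24 months the counts were 6, 13, 9, 2, 24 and 43. The cause of these shifts was not tested.

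Leaving out each array in turn gave 1 to 5, 0 to 2, 0 to 6, 0 to 1, 6 to 19 and 5 to 26. The share of all genes called moved as well. In the same order it ran over 7.45% to 18.1%, 2.24% to 7.61% and 2.22% to 10.1%. For the last 3 it ran over 0.368% to 3.43%, 18.4% to 32.4% and 29.3% to 45.6%. At 24 against 3 months the count was 5 without array 4 of 24 months and 2 without array 3 of 24, 3 of 3 or 2 of 12 months. At 24 against 18 months it was 19 without array 4 of 24 months and 6 without array 1 or 3 of 18 months. For any age it was 26 without array 4 of 24 months, 5 without array 1 or 2 of 3 months, and 6 without array 3 of 3, 1 or 3 of 9, or any array of 18 months. At 12 against 9 months it was 6 without array 3 of 24 months, 4 without array 4 of 24 or 3 of 12 months, 1 without array 4 of 12, 1 of 18 or 1 of 24 months, and 0 without any array of 3 or 9 months or array 3 or 4 of 18 months. At 18 against 12 months it was 0 without array 2 of 12 or any array of 18 months. At 9 against 3 months it was 2 without array 4 and 1 without array 1 of 24 months. Complex medians at 24 against 3 months were -0.126 to 0.071 for complex I, -0.19 to -0.001 for II, 0.026 to 0.199 for III, -0.33 to -0.053 for IV and -0.034 to 0.102 for V. Under normexp they were -0.329 for I, -0.173 for III and -0.269 for V.

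With the replicate block the counts were 1, 0, 0, 0, 7 and 6. The shares of all genes were 9.92%, 3.75%, 1.71%, 0.423%, 20.4% and 25.2%. Same-numbered arrays of different ages did not deviate together: over 25 pairs r was -0.30 to 0.119, and 1 of 16 arrays correlated best with its own number, so the numbers do not pair the samples. No called change of a member reversed its sign under the alternatives run. Among the uncalled differences at 24 against 3 months, Cycs, Uqcrb and Uqcr11 became 0.026, 0.027 and 0.017 without array 3 of 24 months, and Cox5b and Cox8a -0.003 and -0.128 without array 4. Under normexp Cyc1, Ndufv2, Cox5b, Cox8a, Atp5mc1 and Atp5g3 turned to between -0.272 and -0.071, and under quantile normalization Cox6a1 and Uqcrb to 0.08 and 0.011. The adjusted p of Cox7c at 24 against 18 months stayed below the threshold under all alternatives run, with changes of -2.86 to -1.26. All of these used its chosen probe or a mean that includes it. The other Cox7c probe had -1.10 to -0.52 at 24 months and -1.08 to -0.76 at 18 months.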
